A study of Mus musculus with 4 samples.

Results

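Tnnt1, Synpo2 and Nexn are 3 mouse genes whose proteins bind or regulate actin filaments, and they were followed here across every m6A peak that the deposited table assigns to them. N6-methyladenosine (m6A) is a methyl mark on RNA, and peaks are stretches where RNA fragments pulled down with an anti-m6A antibody pile up after sequencing. They were selected on the measured difference, because peaks of theirs were among the called ones when cortex after repetitive mild traumatic brain injury (rmTBI) was compared with cortex after a sham procedure. Their difference between the 2 groups is therefore described below and not tested. All rows carrying one of the 3 gene names were taken, which gave 15 of 33977 peaks and 3 of 10415 genes. There were 2 rmTBI and 2 sham libraries, all from mouse cerebral cortex and all labelled with the same antibody, numbered 0 and 1 in each group. The labels used here give no strain, age, injury protocol, time after injury or count of animals, and do not say what the numbers 0 and 1 stand for. The spread between libraries, which is all that a p-value measures here, may therefore be technical. Whether the 2 libraries of a group are replicates is not stated either. The SE and p-values computed here for rmTBI against sham treat them as replicates.

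Troponin T is the part of the troponin complex that anchors it to tropomyosin on the actin filament, and the complex makes muscle contraction depend on calcium. Tnnt1 encodes the troponin T of slow skeletal muscle. Synpo2 encodes synaptopodin-2 (myopodin), which bundles actin and binds alpha-actinin and filamin at the Z-disc of muscle, and Nexn encodes nexilin, a further actin-binding protein of the Z-disc. In the mouse brain, transcripts of Tnnt1 and Synpo2 are known mainly from the thalamus. The m6A mark is written by a complex around METTL3, often in long internal exons and near stop codons, and is read by proteins of the YTH family.

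Tnnt1 lies on chromosome 7 (4504569 to 4515975) and Synpo2 and Nexn lie on chromosome 3 (123076519 to 123236168 and 152236982 to 152266350), all on the minus strand and all protein-coding in RefSeq (GRCm38.p6). No other RefSeq gene overlaps any of the 3 spans. All 15 peaks fall inside them, which is why the coordinates were read as GRCm38, although the submitters' notes name GRCm39. By the authors' classes 11 peaks were coding and 4 lay in 3' UTRs. Peaks were called in each condition separately, and the 15 peaks formed 8 groups of overlapping peaks, so members of a group share reads. Of the peaks of Tnnt1, 1 was called in rmTBI and 1 in sham; Synpo2 had 2 rmTBI and 5 sham peaks, and Nexn had 4 rmTBI and 2 sham peaks. The table gives only the outer limits of a peak, which can span introns, and levels are therefore not compared between genes.

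RefSeq promoter sequences of 300 bases, from 250 before to 50 after a start site, were found for Tnnt1 and Synpo2 and not for Nexn. For Tnnt1 this start site is the end of the RefSeq span at 4515975. For Synpo2 it lies a few bases inside the span, which ends at 123236168. They are shown because the 2 genes had the lowest folds of the 3 and the nearest profiles to each other among them. Capitals mark matches on either strand to the TATA box (TATAAA) and to the 10-letter MEF2 consensus, 2 elements known from muscle gene promoters. The first is on chr7:4515926-4516225 and the second on chr3:123236100-123236399, both on the minus strand and written 5′ to 3′.
Tnnt1: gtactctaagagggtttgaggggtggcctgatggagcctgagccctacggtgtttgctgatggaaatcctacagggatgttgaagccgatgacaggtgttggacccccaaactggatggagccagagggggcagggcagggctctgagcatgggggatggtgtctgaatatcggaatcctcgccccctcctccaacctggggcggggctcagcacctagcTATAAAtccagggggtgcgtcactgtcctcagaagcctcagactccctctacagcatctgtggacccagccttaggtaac
Synpo2: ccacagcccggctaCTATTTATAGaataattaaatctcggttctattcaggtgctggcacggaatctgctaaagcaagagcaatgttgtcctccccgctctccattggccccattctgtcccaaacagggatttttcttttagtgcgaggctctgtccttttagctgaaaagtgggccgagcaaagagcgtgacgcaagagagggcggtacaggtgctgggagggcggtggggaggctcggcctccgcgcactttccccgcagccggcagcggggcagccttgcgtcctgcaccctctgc
In Tnnt1 the TATA box lay 30 bases before the start site. In Synpo2 a MEF2 match began 236 bases before the start site and held a TATAAA match on the other strand. Of the 32851 promoter windows in the table, 13.6% held TATAAA and 3.19% a MEF2 match. Neither promoter held the CArG box bound by SRF, which 1.63% of the windows held, or the MCAT element (CATTCC), which 14.7% held. The E-box (CANNTG) was found in both, as in 72.3% of the windows. A match is a description of these letters and not a site.

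Tnnt1 had the largest difference of the 3 genes. Its longer coding peak (chromosome 7, 4508527 to 4514509) held 86 and 212 reads in rmTBI libraries 0 and 1, against 1259 and 2470 in sham libraries 0 and 1. Scaled to CPM (counts relative to library size, corrected with TMM factors), this was 6.52 and 7.63 CPM in rmTBI, against 89.7 and 90.3 CPM in sham. Both rmTBI libraries lay far below both sham libraries, and the 2 sham libraries differed by less than 1 CPM. The log2 fold of rmTBI over sham was -3.66 (SE 0.27), which is 12.7 times less in rmTBI. The shorter peak inside it (4508557 to 4510062) held 4.17 and 5.07 CPM in rmTBI and 63.8 and 61.0 CPM in sham (log2 -3.75, SE 0.28). No library is labelled as an input, and without one a lower count at a peak does not separate less methylation from less transcript. In whole tissue, fewer cells of a type and less RNA per cell cannot be told apart either.

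The inner part of the Tnnt1 peak held a somewhat smaller share of its reads in rmTBI, within counting error. The inner 1506 bases made up 25.2% of the outer span. They held 64.0% (95% Wilson interval 53.4 to 73.3) and 66.5% (59.9 to 72.5) of its reads in the rmTBI libraries, against 71.1% (68.5 to 73.5) and 67.6% (65.7 to 69.4) in the sham libraries. Both rmTBI shares lie below both sham shares, and the intervals of both rmTBI libraries overlap those of both sham libraries. Such intervals cover counting error only.

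Synpo2 was lower in rmTBI at all 7 of its peaks, coding and 3' UTR alike. Its 3' UTR peaks were assigned to another transcript than its coding peaks. The nearest of them starts 34515 bases from the 3' end of the RefSeq span of Synpo2. Its strongest coding peak (chromosome 3, 123114027 to 123116997) held 137 and 473 reads in the rmTBI libraries and 1428 and 3661 in the sham libraries, or 10.4 and 17.0 CPM against 102 and 134 CPM (log2 -3.10, SE 0.33). In rmTBI the library numbered 1 was the higher of the 2, as it was in sham. Nearly all of these reads lay at the 3' end of the span: the 601 bases called in sham (123114027 to 123114627) made up 20.2% of its length and held 96.4% and 98.5% of its reads in rmTBI, against 96.5% and 99.3% in sham (95% Wilson intervals from 91.7% to 99.5% over the 4 libraries). The peak calls of the 2 conditions thus differ in length while the reads sit in the same place.

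The second strong Synpo2 signal was in the 3' UTR (123111423 to 123111783). It held 5.53 and 7.48 CPM in rmTBI, against 49.3 and 90.9 CPM in sham (log2 -3.42, SE 0.38), so the 2 sham libraries stood almost as far apart in CPM as the lower of them stood above rmTBI. Its twin of 301 bases from the rmTBI set gave the same log2 value. Of the 3 weaker peaks, all called only in the sham set, a coding peak (123113279 to 123113759) held 1.14 and 0.791 CPM in rmTBI, against 10.5 and 10.4 CPM in sham (log2 -3.48, SE 0.33). The other 2 rest on few reads in rmTBI, 8 and 4 at a 3' UTR peak (123111034 to 123111274) and 10 and 6 at a coding peak (123117325 to 123117595), against 38 and 103 and 102 and 162 in sham. Their log2 folds were -3.32 (SE 0.67) and -3.94 (SE 0.53). Over all 7 peaks the log2 fold ran from -3.94 to -3.10, with a median of -3.42.

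**Figure D1:**
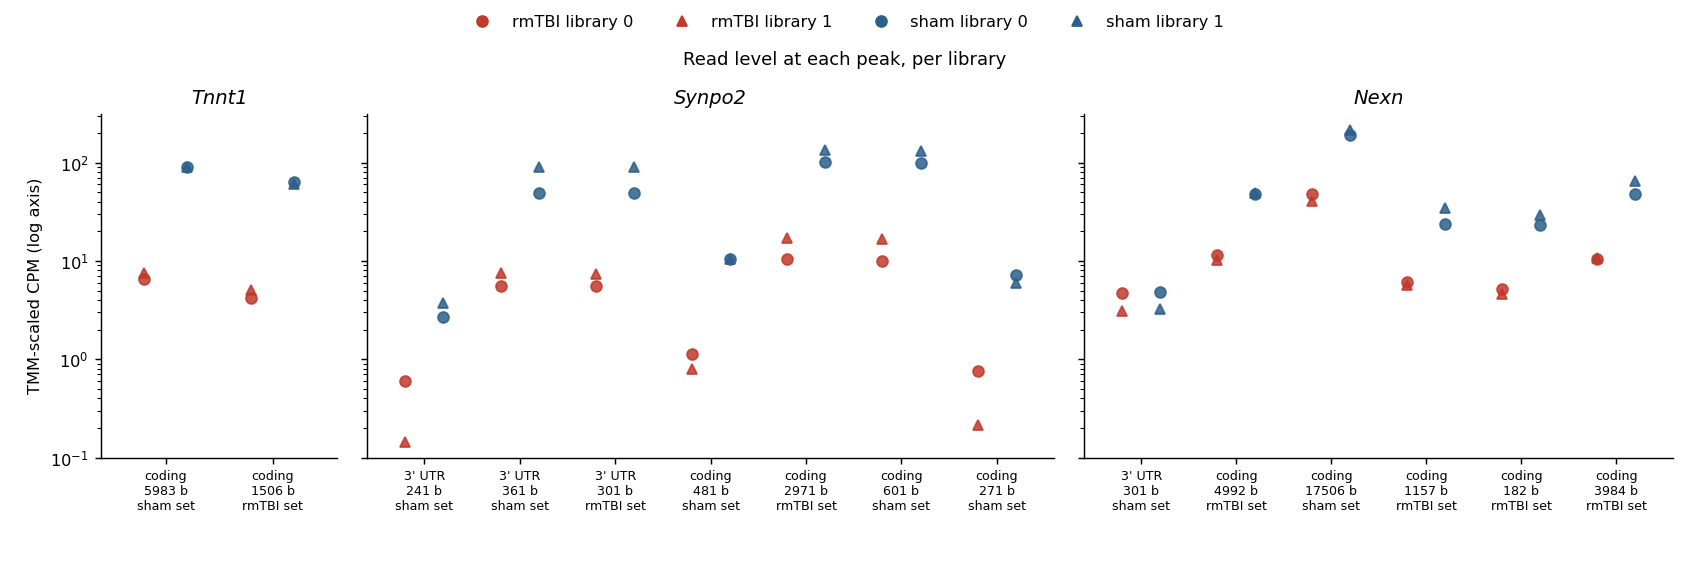
TMM-scaled CPM (log axis) at each of the 15 peaks, ordered from the 3' to the 5' end of each gene, with rmTBI libraries in red left of sham libraries in blue, circles for library 0 and triangles for library 1, and the class, length in bases and peak set below each peak. At 14 peaks both rmTBI libraries lie below both sham libraries, and at the 3' UTR peak of Nexn the groups overlap.

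Nexn was lower in rmTBI at its 5 coding peaks and not at its 3' UTR peak. The longest coding peak, called in sham and spanning 17506 bases (chromosome 3, 152237790 to 152255295), held 637 and 1124 reads in the rmTBI libraries, against 2683 and 5877 in the sham libraries. In CPM this was 48.3 and 40.4 in rmTBI and 191 and 215 in sham, a log2 fold of -2.20 (SE 0.24), or 4.58 times less in rmTBI. The 4 coding peaks of the rmTBI set lie along the same stretch and had log2 folds from -2.43 to -2.15. The peak of 182 bases (152247086 to 152247267), which held 5.23 and 4.64 CPM in rmTBI and 23.3 and 29.6 CPM in sham, was the lowest of them. At every coding peak of Nexn the 2 groups lay apart. The share of the longest peak's reads in the part of 3984 bases (152249681 to 152253664) was 21.8% (95% Wilson interval 18.8 to 25.2) and 26.2% (23.8 to 28.9) in rmTBI, against 25.2% (23.6 to 26.9) and 30.4% (29.2 to 31.6) in sham. The share was higher in library 1 than in library 0 of each group, the intervals of both rmTBI libraries lay below that of sham library 1, and the groups overlapped.

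The 3' UTR peak of Nexn (152237341 to 152237641), called in sham only, held 63 and 86 reads in the rmTBI libraries, against 67 and 89 reads in the sham libraries. In CPM these were 4.78 and 3.09 in rmTBI and 4.78 and 3.25 in sham, with a log2 fold of -0.03 (SE 0.36), and the groups overlapped. It starts 359 bases from the 3' end of the RefSeq span of Nexn and ends 119 bases before the nearest coding peak. It also lies 511 bases from the end of Fubp1 (152210422 to 152236830), the next gene, which runs on the opposite strand towards Nexn. Fubp1, which encodes a DNA-binding regulator of Myc, had 4 3' UTR peaks with log2 folds from 0.10 to 0.18 and a coding peak at -0.04. Whether counting used the strand is not stated for these files, and a part of Fubp1 reads in this peak was not tested.

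The range of folds among separate peaks of a gene was set beside the same measure over all genes. Of the 4770 genes with at least 2 groups of overlapping peaks at a mean of at least 1 CPM, the median range was 0.24 on the log2 scale. Nexn, at its longest peak and its 3' UTR peak, had a range of 2.16, which 2 of the 4770 genes reached, Nexn included (0.0419%). Synpo2 had a range of 0.85, reached by 4.91% of the genes, and its extreme value came from the peak with 10 and 6 reads in rmTBI. Tnnt1 has a single group of overlapping peaks. These ranges come from the contrast that chose the genes and are a description.

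**Figure D2:**
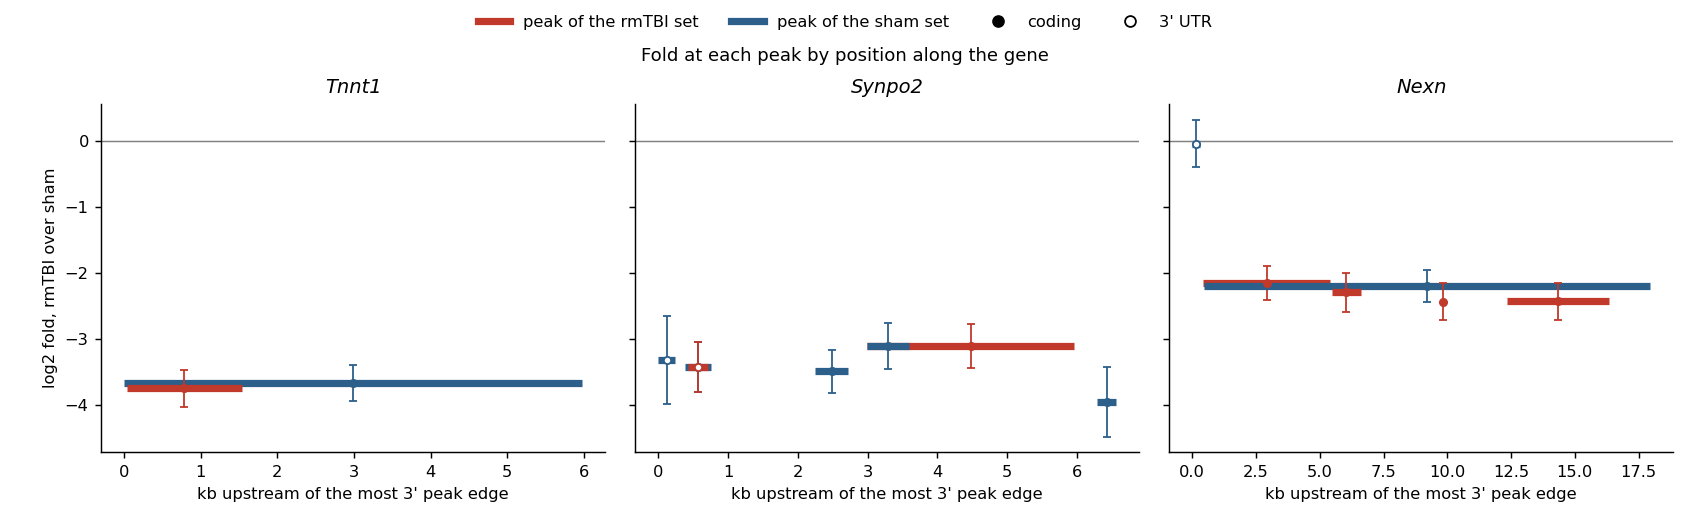
The log2 fold of rmTBI over sham (vertical axis, error bars are SE) at each peak against its distance in kb from the most 3' peak edge of the gene; bars span the peak, red for the rmTBI set and blue for the sham set, with filled points for coding and open points for 3' UTR peaks. All folds of Tnnt1 and Synpo2 lie between -3.94 and -3.10, and in Nexn the 3' UTR peak at -0.03 stands apart from the coding peaks at -2.43 to -2.15.

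Among all peaks, edgeR (quasi-likelihood, adjusted after Benjamini and Hochberg) called 29 of 33415 (0.0868%), all lower in rmTBI, and 11 of the 29 belong to the 3 genes, because that is how the genes were picked. They were 2 peaks of Tnnt1, 5 of Synpo2 and 4 of Nexn. With library-size scaling in place of TMM, 2 peaks were called in all, both of Tnnt1, and with at least 10 counts asked of each library 0 were called (855 at an unadjusted p under 0.05). DESeq2 called 131 peaks, 14 of the 15 among them. All 15 passed the filter on low counts. For 2 Synpo2 peaks, with 8 and 4 and with 10 and 6 reads in rmTBI, passing needed the sham libraries. Both count in the 2 shares of 14 of the 15 given below. Just inside the threshold of 0.05 lay the Nexn peak of 4992 bases, with an adjusted p of 0.0471 by edgeR, and just outside it lay the Nexn peak of 1157 bases, with 0.0683. Both rmTBI libraries were below both sham libraries at 14 of the 15 peaks, against 12.3% of all tested peaks. In a model that also holds the library number, 14 of the 15 were called lower, against 10.6% of all peaks called and 5.22% called lower; this too is the contrast that chose the genes. The folds were negative in both pairs of libraries. As the median over a gene's peaks, the log2 fold within the libraries numbered 0 was -3.83 for Tnnt1, -3.12 for Synpo2 and -2.05 for Nexn. Within the libraries numbered 1 it was -3.56, -3.59 and -2.40.

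The ratio of the libraries numbered 1 to those numbered 0 was tested in a model with group and number. In the model on group alone, whose calls chose the genes, this ratio makes up the spread within each group. A ratio far from 0 makes a call harder there, so the choice of the genes was not independent of it. For these genes the test results on number are therefore a description. Synpo2 was higher in number 1 at its 2 strong places. At the 3' UTR peak (123111423 to 123111783) the log2 ratio was 0.43 in rmTBI and 0.88 in sham (0.79 in the model, SE 0.10, adjusted p = 2.75e-13 by edgeR). At the coding peak (123114027 to 123116997) it was 0.71 in rmTBI and 0.39 in sham (0.48 in the model, SE 0.08, adjusted p = 2.03e-08 by edgeR). Their overlapping twins gave 0.80 and 0.51. The weaker Synpo2 peaks gave -0.54 to -0.12 and did not pass.

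Nexn passed at 2 coding peaks of the rmTBI set, 0.31 (SE 0.10, 152249681 to 152253664) and 0.35 (SE 0.14, 152242810 to 152243966), with ratios of 0.01 and -0.09 in rmTBI, against 0.44 and 0.54 in sham. Its longest peak stood at 0.01 (SE 0.06) and its 3' UTR peak at -0.59 (SE 0.26, edgeR adjusted p = 0.0607). Tnnt1 stood at 0.05 (SE 0.09) and 0.00 (SE 0.11). In all, 6 of the 15 peaks passed, all of them higher in number 1, in 3 groups of overlapping peaks. Of all tested peaks 38.1% passed, 17.1% higher and 21.1% lower, so passing here is common. The number also goes with sequencing depth, and the 2 cannot be told apart. The libraries numbered 0 held 13753600 (rmTBI) and 14437317 (sham) counts. Those numbered 1 held 26888072 (rmTBI) and 26356562 (sham). This model has 1 residual degree of freedom, and DESeq2 called 4 of the 15. For orientation, the median log2 ratio in sham was 0.15 over all 3' UTR peaks and -0.07 over all coding peaks.

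**Figure D3:**
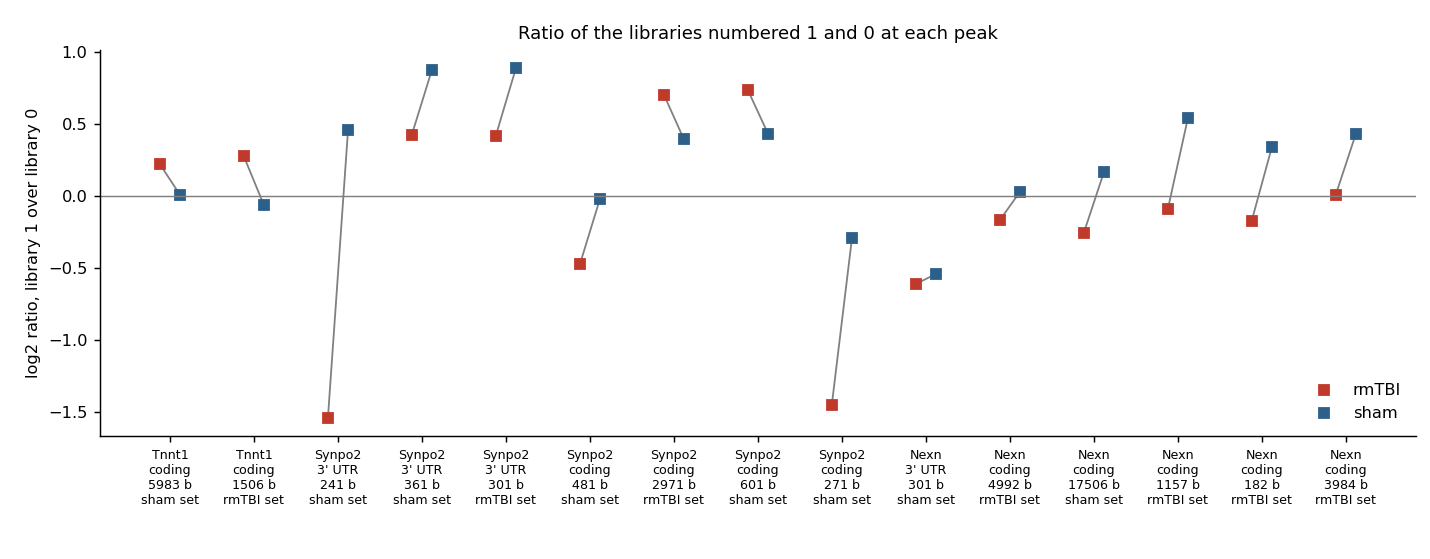
The log2 ratio of library 1 to library 0 (vertical axis) in rmTBI (red, left) and sham (blue, right) at each of the 15 peaks, with class, length in bases and peak set below. The 2 strong places of Synpo2 lie above 0 in both groups, the 3' UTR peak of Nexn lies below 0 in both, and the 2 lowest points in rmTBI, -1.55 and -1.45, are peaks with 10 reads or fewer in each rmTBI library.

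The authors' deposited table gives its own log2 value, p and adjusted p per peak. Across the 33977 peaks, which share libraries, that log2 value tracked how much more library 1 exceeded library 0 in rmTBI than in sham (Pearson r = 0.99 with 0.5 added to each count) and not the summed rmTBI over sham counts (r = 0.06). An adjusted p under 0.05 stood in the authors' deposited table at 3 peaks (0.00883%), and 2 of them were overlapping coding peaks of Synpo2 (2971 and 601 bases), which also ranked first and second by p. The log2 values of the peaks of 601 and 2971 bases in the authors' deposited table were 0.35 and 0.36, with p-values of 3.23e-07 and 3.37e-07 and an adjusted p of 0.00602 each. The third was a peak of Shox2 (adjusted p = 0.00629 in the authors' deposited table), a homeobox gene of the thalamus. For comparison, 98 other peaks had an absolute log2 value from 0.3 to 0.4 in the authors' deposited table and a summed count within 1.5 times that of the Synpo2 peak of 601 bases. Their p-values in the authors' deposited table had a median of 0.428 and a lowest value of 0.106, at Brd3.

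The other peaks of the 3 genes had an adjusted p of 0.667 or more in the authors' deposited table. There the 2 Tnnt1 peaks ranked 10 and 12 by p with log2 values of 0.26 and 0.39, and the 3' UTR pair of Synpo2 ranked 28 and 31 with -0.40 and -0.42. The Nexn coding peaks ranked between 309 and 4621 in the authors' deposited table, with log2 values from -0.59 to -0.15, and its 3' UTR peak ranked 32886 with -0.03. Over all peaks the p-values of the authors' deposited table followed the size of its log2 value (Spearman rho = 0.74 between p and the negative of that size) more than the p-values of rmTBI against sham by edgeR (rho = 0.18). Of the 100 peaks with the smallest p in the authors' deposited table, 39 had an unadjusted edgeR p under 0.05 for rmTBI against sham, beside 2.84% of all tested peaks. No source at hand says how the deposited p was computed.

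The troponin and tropomyosin relatives of Tnnt1 had gene-level log2 folds from -0.55 to 1.07 or no peak. Of 11 further troponin and tropomyosin genes, 6 had a tested peak and 0 were called by edgeR or DESeq2 on group alone (1 at an unadjusted edgeR p under 0.05). Their median gene-level log2 fold was -0.07, beside 0.003 over all 10209 genes tested. With the library number also in the edgeR model, 2 of them had a peak called higher and 1 a peak called lower. Over all genes, 14.1% had a called peak in that model. A gene-level value is the median over the gene's peaks. Tnnt2, the troponin T of heart muscle, led the list by p-value and lay the other way from Tnnt1. Its leading coding peak (chromosome 1, 135847762 to 135851361) held 16.8 and 17.4 CPM in rmTBI and 8.34 and 8.26 CPM in sham (log2 1.04, SE 0.25, unadjusted p = 0.00316, adjusted p = 0.521, edgeR). The groups did not overlap there, and its gene-level log2 fold was 1.07 within each pair of libraries of one number. Tpm2, a beta-tropomyosin gene, stood at -0.36 (SE 0.24). Tnni3, the cardiac troponin I gene that follows Tnnt1 on chromosome 7, stood at -0.63 (SE 0.64) at a peak with under 1 CPM in every library. No peak of Tnnt3, Tnni1, Tnni2, Tnnc1 or Tnnc2 was analysed here.

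Among 16 actins and proteins of filament ends, 8 had a tested peak and 0 were called by edgeR on group alone (median log2 -0.05, 2 with an unadjusted p under 0.05). Lmod2, which encodes leiomodin-2, a nucleator of actin filaments in heart and skeletal muscle, was the lowest, with 0.227 and 0.144 CPM in rmTBI, against 2.21 and 2.67 CPM in sham, at a coding peak on chromosome 6 (24603325 to 24603595). Its log2 fold was -3.76 (SE 0.62, adjusted p = 0.160, edgeR), and DESeq2 called it (adjusted p = 0.00210). At these rmTBI levels Lmod2 passed the low-count filter through the sham libraries alone, and its fold and call rest on few rmTBI reads. Its relative Lmod1 stood at 1.79 (SE 0.66) at its leading peak, with 1.44 and 1.55 CPM in rmTBI and 0.214 and 0.585 CPM in sham. This fold too rests on few reads, and the gene-level log2 fold of Lmod1 was 0.37. Capzb, a capping protein gene, stood at 0.25 (SE 0.28) at its leading peak. Among 34 other Z-disc and actin-bundling genes, 12 had a tested peak and 0 were called by edgeR on group alone (median log2 -0.05, 0 with an unadjusted p under 0.05, and 0 called by DESeq2). No peak of Synpo2l, a paralog of Synpo2, was analysed here. Synpo, which encodes synaptopodin, a related protein of dendritic spines, stood at 0.53 (SE 0.24) at its leading peak, with 35.9 and 36.3 CPM in rmTBI and 24.0 and 25.9 CPM in sham. Csrp1 stood at -0.67 (SE 0.35) and Tln2, which encodes talin-2, at -0.38 (SE 0.32).

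Of 40 genes of actin assembly and turnover, 29 had a tested peak and 0 were called by edgeR or DESeq2 on group alone (1 at an unadjusted edgeR p under 0.05). Of the 29, 20 lay above and 9 below 0, with a median log2 of 0.05. The smallest p-values were those of Cobl, an actin nucleator (peak log2 1.08, SE 0.41, unadjusted p = 0.0303), Fmn2, a formin (-0.92, SE 0.55), and Wasf1, of the WAVE complex (0.36, SE 0.27). The Fmn2 peak is 1 of 11 and held 0.606 and 1.08 CPM in rmTBI and 1.92 and 1.43 CPM in sham. At gene level the log2 folds were 0.49 for Cobl, 0.18 for Fmn2, thus opposite in sign to its leading peak, and 0.17 for Wasf1. Over the 4 lists, 55 of 101 genes other than Tnnt1, Synpo2 and Nexn had a tested peak, their median was 0.04, and 4 of the 55 had a peak with an unadjusted p under 0.05, against 4.36% of all genes tested. The share of genes with a called peak on group alone was 0.118% over all genes. With the library number also in the edgeR model, 10 of the 55 had a peak called higher and 5 a peak called lower. In that model 14.1% of all genes had a called peak.

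**Figure D4:**
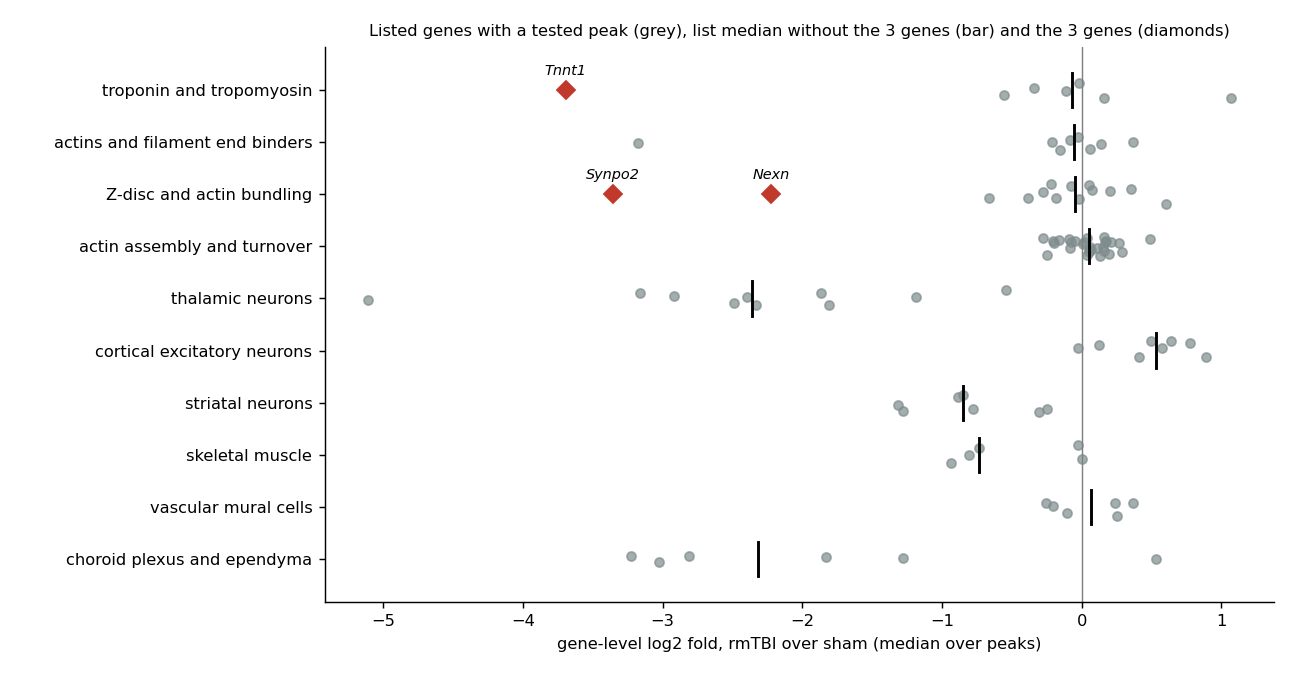
Gene-level log2 fold of rmTBI over sham (horizontal axis, median over a gene's peaks) for the listed genes with a tested peak (grey points, 1 row per list), the median of each list without Tnnt1, Synpo2 and Nexn (black bars) and those 3 genes (red diamonds). The medians of the 4 actin lists lie between -0.07 and 0.05, and those of the thalamic and choroid plexus lists lie at -2.36 and -2.32.

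Markers of cell types and regions lay apart between the groups as well. The marker lists were drawn up with earlier results of these data known, so the counts are a description and not independent support. The tissue carried its cortical markers, with all 8 cortical excitatory genes present, among them Neurod6 at a gene level of 155 CPM in rmTBI and 99.8 CPM in sham. Of these, 7 lay higher in rmTBI (median log2 0.54). Of 12 thalamic markers, 10 had a tested peak, all 10 lay lower in rmTBI (median log2 -2.36) and 5 had a called peak, beside 0.118% of all genes tested. Their summed gene level was 35.0 and 44.1 CPM in the rmTBI libraries and 165 and 204 CPM in the sham libraries. Slc17a6, the vesicular glutamate transporter of subcortical neurons, had gene levels of 13.7 CPM in rmTBI and 72.7 CPM in sham. All 7 striatal markers with a peak lay lower as well (median log2 -0.85, summed level 523 and 526 CPM in rmTBI, 940 and 957 CPM in sham), and so did 5 of 6 choroid plexus and ependymal markers (median log2 -2.32, 11.2 and 12.8 CPM against 38.6 and 44.7 CPM). Over all genes tested, 49.6% lay below 0. Some markers stand on few rmTBI reads. Kcne2 of the choroid plexus list (0.455 and 0.144 CPM in rmTBI) and Gbx2 of the thalamic list (0.303 and 0.324 CPM) passed the low-count filter through the sham libraries alone. That they lay lower was thus partly fixed by the filter. Prlr held 0 and 0.863 CPM in rmTBI at its leading peak.

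Among skeletal muscle markers, Myh7 stood at about the same level in both groups (gene-level log2 0.006). Myh1, Mb and Ttn lay at -0.94, -0.81 and -0.74, each at a mean gene level of about 1 CPM or less in both groups, and Tcap at -0.02. Of 14 skeletal muscle markers 5 had a tested peak, 4 of them lower in rmTBI (median log2 -0.74), and their summed level was 37.5 and 34.0 CPM in rmTBI and 38.1 and 35.9 CPM in sham, nearly all of it from Myh7. No peak of Ckm, Acta1, Myh2, Myh4, Mylpf or Atp2a1 was analysed here. Of 10 markers of vascular mural cells 6 had a tested peak, 3 above and 3 below 0 (summed level 108 and 89.2 CPM in rmTBI, 111 and 94.1 CPM in sham). The part of the thalamic, striatal and choroid plexus markers in the difference of Tnnt1, Synpo2 and Nexn was not tested.

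The genes with the nearest profile over the 4 libraries were ranked among 9209 genes with at least 1 CPM, by the distance between log2 CPM values centred on each gene's mean. Nearest to Tnnt1 were F5, the gene of coagulation factor V (distance 0.37), Lmod2 (0.74), Slitrk6, a neuronal transmembrane protein gene (0.74), Synpo2 itself (0.74) and Kl, which encodes klotho (0.80). Nearest to Synpo2 were Slitrk6 (0.26), Kl (0.45), Rgs16, a regulator of G protein signalling (0.62), Gm43398 (0.65) and Tnnt1 (0.74). Nexn had other neighbours, led by Mrvi1, which encodes a substrate of cGMP-dependent kinase (0.23), and followed by Gm20635 (0.32), Slc17a6 (0.33), Car12, a carbonic anhydrase gene (0.34), and Prox1os (0.39). Nexn lay 1.51 from Tnnt1 and 1.26 from Synpo2, farther than these 2 from each other. With 4 libraries in 2 groups the distance mostly reflects the size of the group difference, and several neighbours stand on low levels.

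**Figure D5:**
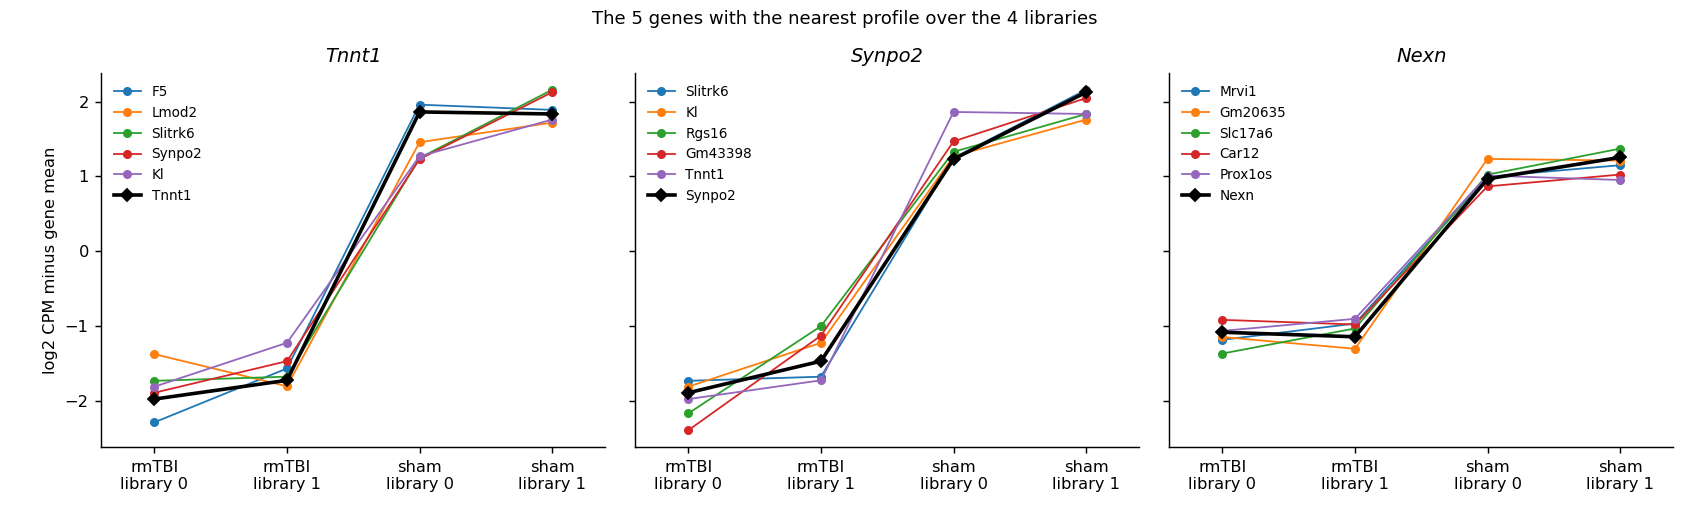
Log2 CPM minus the gene's mean (vertical axis) in the 2 rmTBI and the 2 sham libraries for Tnnt1, Synpo2 and Nexn (black diamonds) and the 5 genes nearest to each (coloured points). Tnnt1 and Synpo2 appear among each other's neighbours at a distance of 0.74, and the neighbours of Nexn span a smaller difference.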

How the data were processed

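The authors' file holds, for every peak, raw deposited counts of the 4 libraries (whole numbers, not normalized) and a log2 value with a p-value and adjusted p-value per peak from a test that is not named. STAR, DESeq2 and GRCm39 are named, without roles, in the submitters' processing notes; caller, counter and strand setting are unstated there. Coordinates were taken unchanged from the file and treated as GRCm38 because the peaks of the 3 genes fall inside their RefSeq spans of that build. Counts were tested over the whole table with edgeR 4.0.16 (limma 3.58.1, R 4.3.3): TMM scaling, filterByExpr, quasi-likelihood test, p-values adjusted after Benjamini and Hochberg, called under 0.05, with 2 residual degrees of freedom. The SE is the log2 fold divided by the square root of F. Gene levels are medians over peaks of log2 CPM with a prior count of 2. DESeq2 1.42.0 was an alternative. Library totals ran from 13753600 to 26888072 counts. Scripts were tested on simulated data. The members and lists were chosen with earlier results of these data known. Named were all peaks of the 3 genes, the called or 3 leading genes of each actin list by p-value, the 5 nearest genes of each, and the markers with the highest sham level. The number was not used to pair libraries in the model of rmTBI against sham.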

Additional observations from a re-analysis of the deposited data

Results flagged for a closer look

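At 6 peaks the ratio of library 1 to library 0 lay on opposite sides of 0 in the 2 groups, which rests on 1 pair of libraries per group and was not tested. The share of all peaks with opposite signs is not given here. Over all tested peaks the ratios of the 2 groups correlated at 0.48, so the 6 are not shown to be unusual. The log2 ratio was -1.55 in rmTBI and 0.46 in sham at the Synpo2 3' UTR peak of 241 bases, on 8 and 4 reads in rmTBI, and 0.28 in rmTBI and -0.064 in sham at the Tnnt1 peak of 1506 bases. At 4 coding peaks of Nexn, which overlap one another or share a longer peak, rmTBI lay below 0 and sham above it. The values were -0.17 in rmTBI and 0.031 in sham at the peak of 4992 bases, -0.26 in rmTBI and 0.17 in sham at 17506 bases, -0.092 in rmTBI and 0.54 in sham at 1157 bases, and -0.17 in rmTBI and 0.34 in sham at 182 bases.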

How the results depend on the processing

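The log2 folds of Tnnt1 (-3.70), Synpo2 (-3.35) and Nexn (-2.22), as medians over peaks, kept their sign in every alternative run. They moved by more than the SD between libraries for Tnnt1 within numbers 0 and 1 (-3.83 and -3.56) and for Nexn within those numbers (-2.05 and -2.40) and with the sham set of peaks alone (-1.12, where 1 of 2 peaks is the 3' UTR peak; -2.20 without that peak, an alternative chosen after seeing the data). The number of called peaks in the whole table, 29 by edgeR, was 2 with library-size scaling (both of Tnnt1), 131 with DESeq2 (14 of the 15 peaks), 17 in the rmTBI set alone, and 82 to 122 with a library left out (13 or 14 of the 15; 92 and 122 when rmTBI library 0 or 1 was dropped, 121 and 82 when sham library 0 or 1 was dropped; the lone library left is then assumed to vary like the other group's 2). Requiring 10 counts or more in each of the 4 libraries left 13 of the 15 peaks and 0 calls by edgeR, with 855 peaks at an unadjusted p under 0.05 and a smallest adjusted p of 0.0509. The cause of these shifts was not tested.

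With the label number as a replicate block the same edgeR test called 3553 peaks, 14 of the 15 among them, and the block gave log2 folds of -3.68, -3.46 and -2.27 for the 3 genes. Deviations within the groups correlated at 0.48 across peaks, but with 2 numbers per group this does not pair the libraries. The other actin genes, 0 called by edgeR with 4 at an unadjusted p under 0.05, gave 15 of 55 genes with a called peak under the block, 10 higher and 5 lower, against 14.1% of all genes. Among them were Tnnt2 (4 peaks, log2 1.05, edgeR adjusted p = 1.29e-10), Tpm2 (-0.33, 0.0155) and Tpm3 (0.16, 0.0211). They gave 1 with DESeq2 (Lmod2), and 0 to 1 with a library left out (Lmod2 without rmTBI library 0 or sham library 0); the block and DESeq2 fits of these genes were added after seeing the data. For number 1 against 0, edgeR called 12736 peaks and DESeq2 6931; with library-size scaling 5260 were lower and 7345 higher, against 7037 and 5699 with TMM. Of the 15 neighbours by profile, 13 were shared with a prior count of 0.5. Low counts limit the 2 weakest Synpo2 peaks.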
